A study of Mus musculus with 3 samples.

Results

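Alox15, Ltb and Fgfbp1 are 3 genes of 36808 in the deposited tables. They were chosen by name, and not as the only genes to pass, for a measured level over 10-fold below control embryoid bodies (EBs) in Brachyury knockdown EBs. Their values in that comparison are therefore a description and carry no test. Messenger RNA was sequenced from knockdown EBs at day 4, from control EBs at day 4, which the labels give as wildtype and a column header as nontarget, and from wildtype mouse embryonic stem (ES) cells at day 0. EBs are aggregates in which ES cells differentiate, and all cells were of the D3 line, whose mouse strain is labelled (C3H/HeH x 101/H)F1. Each group was a single library of whole cultures without a replicate, so no test could be run, and how the knockdown was made is not given in the sources used here. Levels are in FPKM, a read density scaled for transcript length and library size.

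The T gene encodes Brachyury, a T-box factor that marks the primitive streak and is needed for mesoderm and notochord. The 3 genes act in separate systems. Alox15 encodes a lipoxygenase, an enzyme that adds oxygen to polyunsaturated fatty acids and is best known from macrophages and eosinophils. Ltb encodes lymphotoxin beta, a membrane-bound member of the tumour necrosis factor (TNF) family that pairs with lymphotoxin alpha, binds the receptor encoded by Ltbr and is known for lymphoid organ development. Fgfbp1 encodes a secreted protein that binds fibroblast growth factors (FGFs) held on heparan sulphate in the matrix and is best known from epithelia.

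T itself was at 2.47 FPKM in knockdown EBs, 254 FPKM in control EBs and 0.297 FPKM in ES cells. Summed FPKM ranged from 568352 to 786277 over the 4 quantifications of the 3 libraries, since control EBs were quantified in both tables. Read counts were not used here, so the depth behind each value is unknown. Of 8 node and notochord markers, counted as higher or lower where log2(FPKM + 1) differed by 1 or more, 7 were lower in knockdown EBs than in control EBs, against 2.53% of the 13766 genes compared. T, the knockdown target, is 1 of the 8, and without it 6 of 7 were lower. Of 12 primitive streak markers 11 were higher and 0 lower in control EBs relative to ES cells, against 15.8% higher and 19.5% lower among the 13919 genes compared. Without T, 10 of 11 streak markers were higher.

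All 3 genes were low in knockdown EBs and in ES cells and high in control EBs. Alox15 (ENSMUSG00000018924, mm9 chromosome 11, 70157654 to 70165533) was at 0.609 FPKM in knockdown EBs, 26.8 FPKM in control EBs and 0.235 FPKM in ES cells. Its control level was above that of 71.9% of the 12883 genes at 1 FPKM or more in that library, whereas its knockdown level was under 1 FPKM. Knockdown EBs were 44.0-fold below control EBs, and the p of this ratio was 0.00396 in the authors' deposited table. Read as a normal test of the log ratio, that p implies a wide 95% interval, 3.35-fold to 577-fold. This p and those given next for Ltb and Fgfbp1 belong to the contrast that chose the genes, so they only describe the precision of single libraries and leave out variation among cultures.

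Ltb (ENSMUSG00000024399, chromosome 17, 35331452 to 35333250) was at 0.546 FPKM in knockdown EBs, 25.6 FPKM in control EBs and 1.47 FPKM in ES cells. It was the 1 gene of the 3 with a lower value in knockdown EBs than in ES cells, with these 2 values taken from separate tables. Knockdown EBs were 46.9-fold below control EBs, with a p of 0.00488 in the authors' deposited table and an implied 95% interval of 3.22-fold to 685-fold. The intervals of Ltb and Alox15 cover nearly the same range, and the order of these 2 genes is not resolved.

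Fgfbp1 (ENSMUSG00000048373, chromosome 5, 44370104 to 44373001) was the most abundant of the 3 in every library, at 6.09 FPKM in knockdown EBs, 85.2 FPKM in control EBs and 2.64 FPKM in ES cells. Its control level was above that of 89.8% of genes at 1 FPKM or more, and its knockdown level was still above that of 33.9% of the 13376 such genes in knockdown EBs. Fgfbp1 was therefore reduced rather than absent. Knockdown EBs were 13.99-fold below control EBs, with a p of 3.20e-10 in the authors' deposited table and an implied 95% interval of 6.15-fold to 31.8-fold. That interval is narrower than those of Alox15 and Ltb, whose knockdown values were under 1 FPKM. In whole cultures, fewer cells that express a gene and less of its RNA per cell cannot be told apart.

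**Figure D1:**
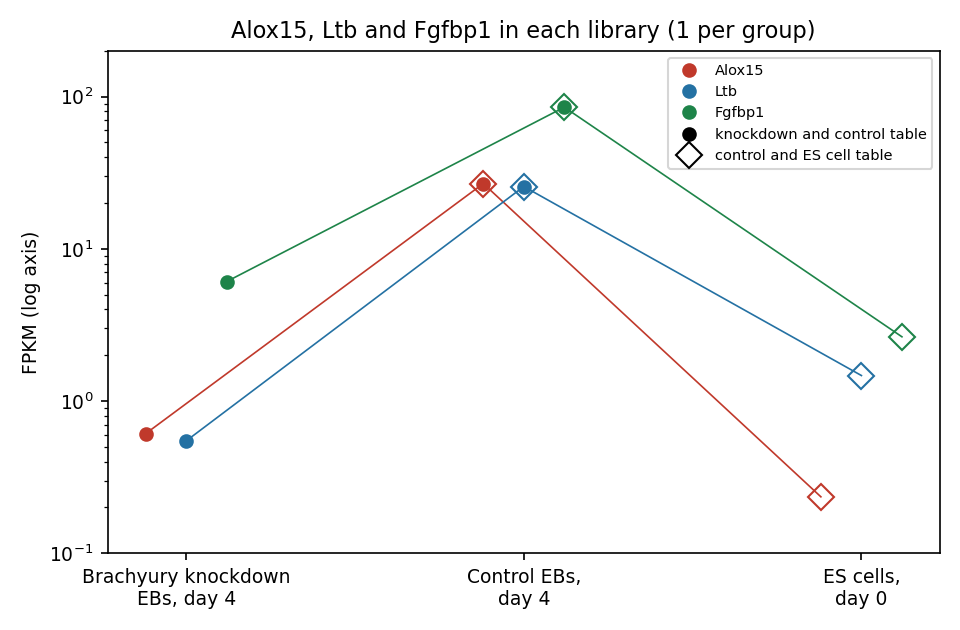
Level of each gene in FPKM on a log axis in knockdown EBs, control EBs and ES cells, with 1 library per group. Filled circles come from the table of knockdown and control EBs and open diamonds from that of control EBs and ES cells, and each gene peaks in control EBs, at 26.8 FPKM for Alox15, 25.6 FPKM for Ltb and 85.2 FPKM for Fgfbp1.

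The sequences just before the start sites of Ltb and Fgfbp1 are shown because the 2 genes shared a pattern of expression. RefSeq promoter windows, 250 bases before to 50 after a start on GRCm38.p6, matched 2 of the 3 genes. Capitals mark motif matches, and the first 250 bases are printed 5′ to 3′ on the strand of the gene, chr17:35194257-35194506 on the plus strand for Ltb and chr5:43981800-43982049 on the minus strand for Fgfbp1.
Ltb: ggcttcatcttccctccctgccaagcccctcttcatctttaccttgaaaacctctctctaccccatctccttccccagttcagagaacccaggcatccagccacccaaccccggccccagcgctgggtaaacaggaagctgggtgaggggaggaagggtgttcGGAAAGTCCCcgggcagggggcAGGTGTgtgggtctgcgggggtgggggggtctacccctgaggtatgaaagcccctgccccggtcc
Fgfbp1: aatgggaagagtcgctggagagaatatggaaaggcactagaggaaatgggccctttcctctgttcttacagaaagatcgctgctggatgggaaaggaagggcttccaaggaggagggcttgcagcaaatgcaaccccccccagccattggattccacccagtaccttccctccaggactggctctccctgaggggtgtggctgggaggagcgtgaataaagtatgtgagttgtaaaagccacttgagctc
Searched on both strands of the whole window were the short T-box site AGGTGT, the longer T-box site AGGTGTGA, which contains the short one, the TATA box TATAAA and 2 consensus NF-kB sites. Ltb held AGGTGT at bases −65 to −60 from the start, a site found in 13.7% of 32851 windows, and an NF-kB site on the strand opposite to the gene, shown in capitals, at −87 to −78, which 0.155% of windows held. The printed stretch of Fgfbp1 held none of these motifs, and its window held TATAAA at bases 4 to 9 after the start, as 13.6% of windows did. A match of letters is a description of the sequence and not evidence of binding. The window of T held AGGTGT at −14 to −9. Genes named below for their like pattern were searched too, namely Wnt8a, Igfbp3, Tagln, Foxj1, Krt19, Isg15 and Aplnr. They gave no listed match to any of these motifs, though whether each had a window was not recorded.

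The second comparison, of control EBs with ES cells, was not used to choose the genes but shares the control library with the first. Alox15 in control EBs was 114-fold above its ES cell value (p = 0.0223 in the authors' deposited table), and the implied 95% interval ran from 1.96-fold to 6660-fold. Ltb was 17.5-fold higher (p = 0.000749 in the authors' deposited table, implied interval 3.31-fold to 92.0-fold). Fgfbp1 was 32.3-fold higher (p = 2.72e-08 in the authors' deposited table, implied interval 9.48-fold to 109.8-fold). These p-values and intervals again describe single libraries only, and genes chosen for a high value in the control library are favoured to lie above ES cells, so the values carry no test. On the log2(FPKM + 1) scale the differences of control EBs minus ES cells were 4.49 for Alox15, 3.43 for Ltb and 4.57 for Fgfbp1, beside a median of −0.10 over all genes compared.

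Set against the control value of its own table, Alox15 retained 2.27% in knockdown EBs and had 0.875% in ES cells. Ltb retained 2.13% and had 5.73%, and Fgfbp1 retained 7.15% and had 3.10%. The knockdown share was thus the greater for Alox15 and Fgfbp1 and the smaller for Ltb. On the natural log scale the knockdown share minus the ES cell share came to 0.955 for Alox15, −0.989 for Ltb and 0.836 for Fgfbp1. The implied errors (SD) of the 2 ratios were 1.31 and 2.07 for Alox15, 1.37 and 0.848 for Ltb, and 0.420 and 0.625 for Fgfbp1. Combined as if independent, these errors gave the gap an error of 2.45 for Alox15, 1.61 for Ltb and 0.753 for Fgfbp1. The 2 ratios share the control library and are not independent, so this error may be too large. None of the 3 gaps was resolved by that measure, with those of Alox15 and Ltb under 1 error and that of Fgfbp1 little above it.

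Of the 9150 genes with at least 5 FPKM in control EBs, 32 (0.35%) were over 10-fold lower and above 0 in knockdown EBs, and a further 3 were listed at 0. By size of the ratio Ltb was number 4, Alox15 number 6 and Fgfbp1 number 18, with T at number 2. The last gene inside the 10-fold bound was Npy, which encodes neuropeptide Y, at 0.569 FPKM in knockdown and 5.73 FPKM in control EBs. The first outside was Cabp7, at 0.741 FPKM in knockdown and 7.11 FPKM in control EBs. Among genes with at least 5 FPKM in control EBs and above 0 in ES cells, 9008 in all, the order of the increase over ES cells was T at number 1, Alox15 at number 10, Fgfbp1 at number 40 and Ltb at number 92.

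**Figure D2:**
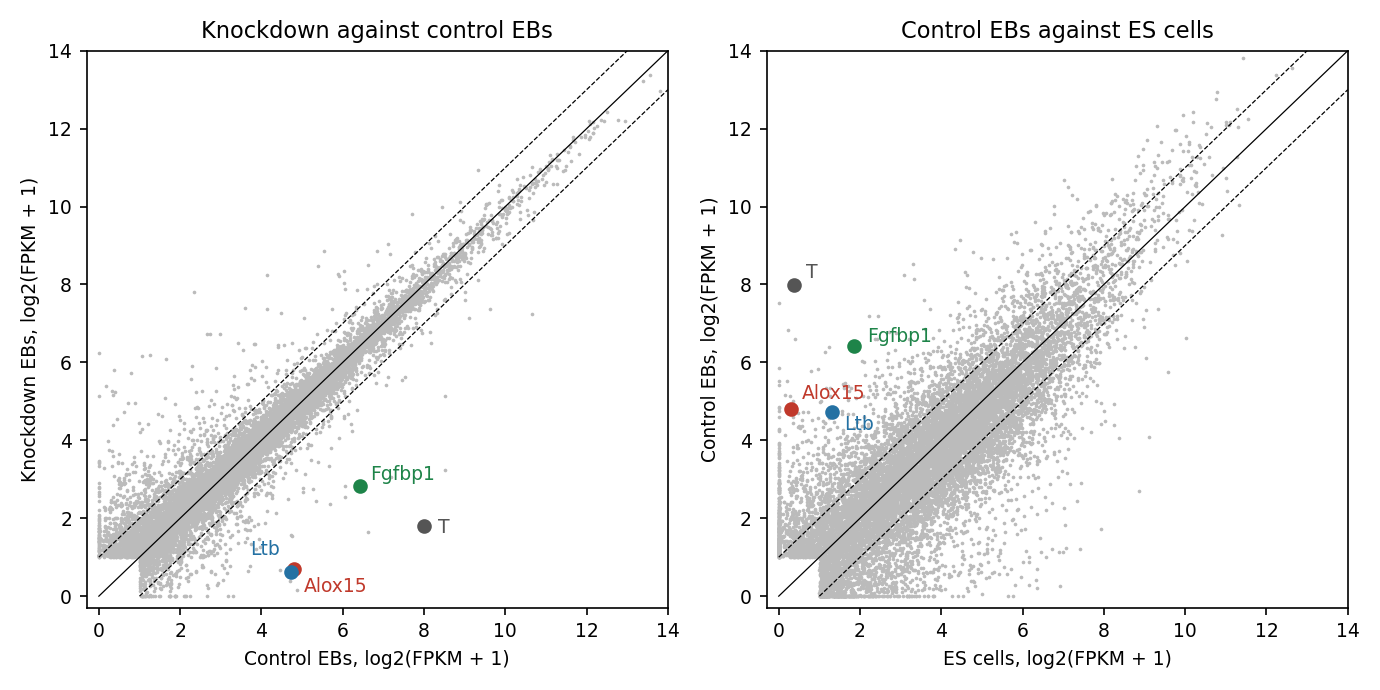
Each grey point is a gene with at least 1 FPKM in either library, on log2(FPKM + 1) axes, for knockdown against control EBs (left) and control EBs against ES cells (right). Dashed lines mark a difference of 1 on that scale. Alox15, Ltb, Fgfbp1 and T lie below the lower line on the left, with differences of −4.11, −4.11, −3.60 and −6.20, and above the upper line on the right.

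Likeness of pattern was measured as the Euclidean distance between log2(FPKM + 1) values over the 4 columns of the 2 tables, each gene centred on its own mean, among 8753 named genes with at least 5 FPKM in some library. With 3 libraries this is a description of which genes share a peak in control EBs. Nearest to Alox15 were Wnt8a, a WNT ligand gene of the streak, at a distance of 0.376, then Igfbp3 (0.405), Fgfbp1 (0.464), Tagln (0.550) and the cilia regulator gene Foxj1 (0.798). Wnt8a was at 0.604 FPKM in knockdown EBs, 20.8 FPKM in control EBs and 0.279 FPKM in ES cells.

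Nearest to Ltb were Wnt8a (0.726), the keratin gene Krt19 (0.742), the interferon-induced gene Isg15 (0.766), Tagln (0.835) and Alox15 (0.919). Isg15 was listed at 0 in knockdown EBs, at 8.005 FPKM in control EBs and at 0 in ES cells. Nearest to Fgfbp1 were Aplnr, the apelin receptor gene (0.421), Tagln (0.458), Alox15 (0.464), Igfbp3 (0.469) and Wnt8a (0.475). Wnt8a and Tagln were among the 5 nearest of all 3 genes, and Tagln shares a deposited locus with other genes, 6 in all. Alox15 and Fgfbp1 were each number 3 in nearness to the other, whereas Ltb ranked number 7 from Alox15 and number 15 from Fgfbp1.

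Within 100 kb of the 3 genes lay 36 other genes, of which 19 reached 1 FPKM in either library of the knockdown table. Of these 0 were higher and 1, Alox12e, was lower in knockdown EBs, beside 5.32% higher and 2.53% lower among all genes, so the count is near that of genes at large. Between control EBs and ES cells 4 of 21 measured neighbours were higher and 5 lower, beside 15.8% and 19.5%. Alox12e, another lipoxygenase gene 21.5 kb from Alox15, was listed at 0 in knockdown EBs and at 1.04 FPKM in control EBs, so its call rests on values at the floor. Pelp1, 40.9 kb away on the other side of Alox15, was at 16.0 FPKM in knockdown and 18.1 FPKM in control EBs. Med11, near the edge of the window, was at 46.0 FPKM in knockdown and 78.7 FPKM in control EBs, a log2 difference of −0.76. Arrb2 was at 16.1 FPKM in knockdown and 17.5 FPKM in control EBs, but was listed at 0 for both libraries of the other table.

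Ltb stands beside Tnf and Lta, which encode TNF and lymphotoxin alpha. Tnf was listed at 0 in knockdown EBs, at 0.585 FPKM in control EBs and at 0 in ES cells. Lta was listed at 0, at 0.295 FPKM and at 0 in the same libraries. Neither reached 1 FPKM, so Ltb was the 1 gene of this adjacent trio that did, and its own pairing partner Lta was near or at 0 throughout. On the other side, Lst1 was at 1.74 FPKM in knockdown and 0.833 FPKM in control EBs, and Bat2 at 25.6 and 31.9 FPKM in the same order. The 11 measured neighbours of Ltb had log2 differences between −0.71 and 0.58.

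Fgfbp1 had 3 measured neighbours, with log2 differences between −0.083 and 0.13. Prom1, which encodes the membrane protein prominin and lies 11.9 kb away in a locus of 2 genes, was at 27.5 FPKM in knockdown EBs, 25.6 FPKM in control EBs and 0.504 FPKM in ES cells. It was therefore as high in control EBs as Ltb and Alox15, exceeded its ES cell level by 4.14 on the log2(FPKM + 1) scale, and differed between knockdown and control EBs by 0.10.

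**Figure D3:**
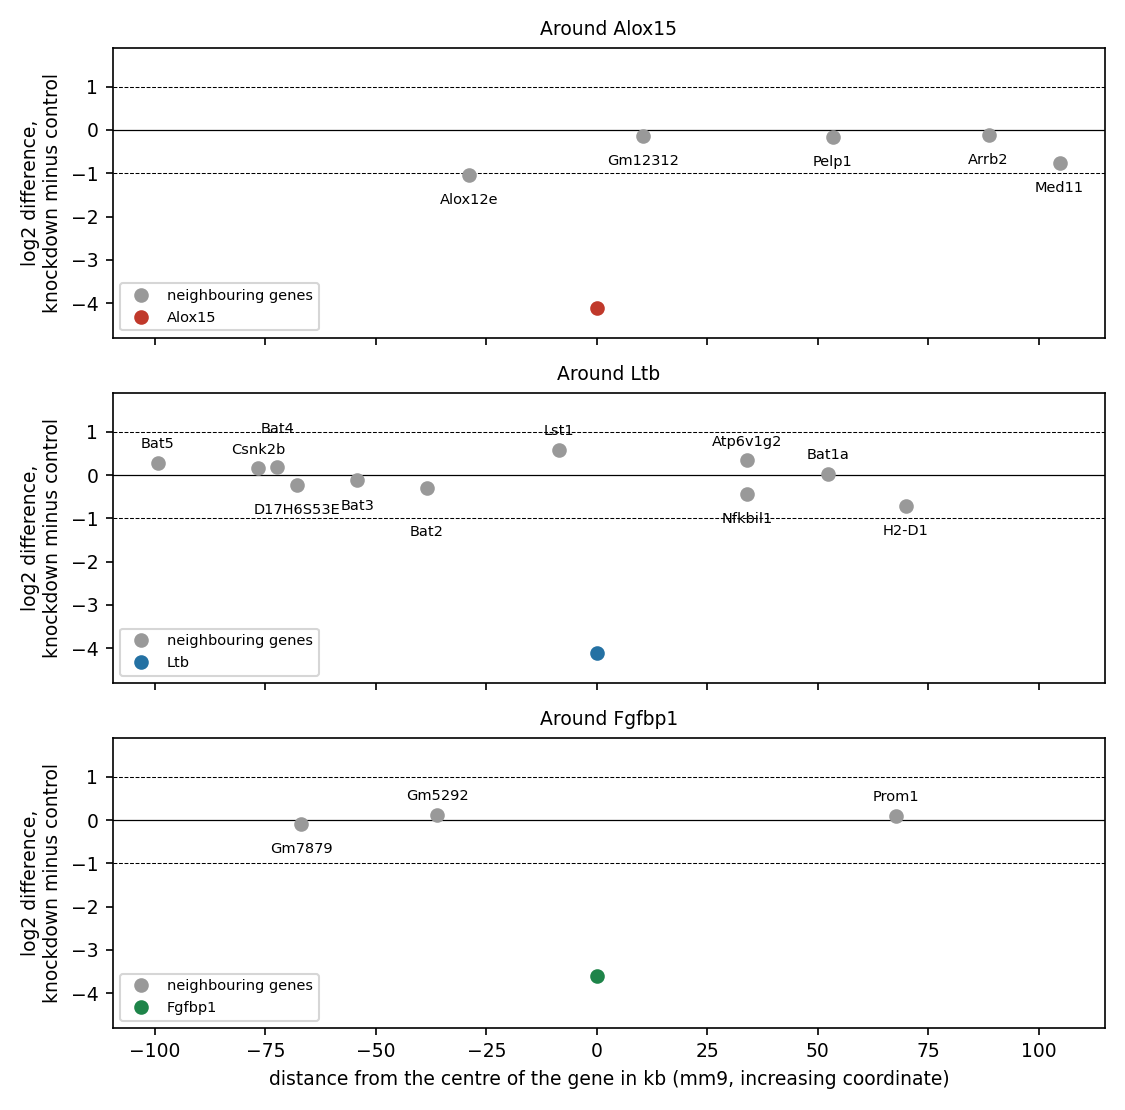
Difference of log2(FPKM + 1), knockdown minus control EBs, for each gene and its measured neighbours within 100 kb, against the distance between gene centres in kb. Dashed lines mark differences of 1. The 3 chosen genes lie at −4.11, −4.11 and −3.60, and their neighbours between −1.03 and 0.58.

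Other lipoxygenases stayed low. Of 7 lipoxygenase genes 3 were measured in the knockdown comparison, and besides Alox15 and Alox12e this was Alox5, the gene of leukotriene synthesis, at 0.862 FPKM in knockdown EBs, 1.32 FPKM in control EBs and 0.719 FPKM in ES cells. Alox12 was at 0.460, 0.725 and 1.07 FPKM in those libraries. Alox15 thus made up most of the lipoxygenase signal of control EBs, 26.8 of a summed 30.2 FPKM. Its coding sequence was 69.7% identical to that of Alox12e and 68.3% to that of Alox12 over the aligned bases, with no identical run longer than 18 bases.

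Of 8 measured enzymes that make or break down other eicosanoids 2 were lower and 0 higher in knockdown EBs, beside 2.53% lower and 5.32% higher among all genes. The lower ones were Ptges, a prostaglandin E synthase gene, at 0.483 FPKM in knockdown and 3.70 FPKM in control EBs, and Ephx2, an epoxide hydrolase gene, at 3.02 and 9.54 FPKM in the same order. The median log2 difference of these 8 genes was −0.30, against 0.057 for all genes. Control EBs in turn had less Ptges than ES cells, at 3.46 and 13.8 FPKM. Ptgds, a prostaglandin D synthase gene, was at 10.9 FPKM in knockdown EBs, 14.5 FPKM in control EBs and 0.721 FPKM in ES cells.

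Of 9 measured genes that release fatty acids from membranes or return them, 2 were higher and 0 lower in knockdown EBs, beside 5.32% higher and 2.53% lower among all genes. Acsl4, which activates arachidonic acid for esterification, was at 40.4 FPKM in knockdown and 16.7 FPKM in control EBs, and the phospholipase gene Pla2g10 at 5.93 and 2.22 FPKM in the same order. Gpx4, which reduces the lipid peroxides that lipoxygenases form, was at 198 FPKM in knockdown and 248 FPKM in control EBs. Of 4 measured eicosanoid receptor genes 1 was lower, Cysltr1, at 0.0704 FPKM in knockdown and 1.27 FPKM in control EBs, near the floor and in a locus of 9 genes. The other 3 fell short of the size rule. Ptger4, at 2.16 and 0.589 FPKM in the same order, and Ptger1, at 1.68 and 0.782 FPKM, leaned higher, and Ltb4r2, at 0.335 and 1.14 FPKM, leaned lower. With a pseudocount of 0.1 the receptors counted were 2 higher and 2 lower. Interleukin-4 and interleukin-13 signalling is a known inducer of Alox15 in human monocytes. Of its 4 genes measured in the knockdown comparison 0 were higher or lower, as for most genes. A partly different 4 were measured between control EBs and ES cells. Of these 3 were lower in control EBs, beside 19.5% of all genes, or 2 with each library divided by its median. Stat6, the transcription factor gene of this signalling, was at 10.1 FPKM in knockdown EBs, 15.1 FPKM in control EBs and 35.0 FPKM in ES cells, in a locus of 5 genes.

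Ltb, itself chosen on this contrast, was the one TNF family ligand gene of 6 measured to differ by the size rule in the knockdown comparison. Among all genes 2.53% were lower and 5.32% higher, and without Ltb 0 of 5 ligands differed, as for most genes. These counts depended on the pseudocount and scaling, since 3 other ligands counted as higher with a pseudocount of 0.1, and 1 with 0.5 or with libraries scaled to a common sum. Without Ltb the other 5 had a median log2 difference of 0.54, with Tnfsf11 at 1.41 FPKM in knockdown and 0.263 FPKM in control EBs, and 9 of the 18 listed ligands were at 0 in both libraries. Between control EBs and ES cells Ltb was also the one higher ligand of 6, while 3 were lower, beside 15.8% higher and 19.5% lower among all genes. Among the lower ones was Tnfsf12, at 1.38 FPKM in control EBs and 14.5 FPKM in ES cells. Tnfsf12 and Tnfsf13 share a locus of 4 genes.

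The receptor gene Ltbr was present in every library, at 4.201 FPKM in knockdown EBs, 6.97 FPKM in control EBs and 3.72 FPKM in ES cells, a log2 difference of −0.62 between knockdown and control. Of 13 measured TNF receptor genes 2 were lower and 2 higher in knockdown EBs, beside 2.53% lower and 5.32% higher among all genes. The 2 higher genes were Relt, at 24.5 FPKM in knockdown and 10.4 FPKM in control EBs, and Tnfrsf21, at 8.07 and 2.71 FPKM in the same order. Of the 2 lower genes, Tnfrsf19 was at 2.23 FPKM in knockdown EBs, 12.2 FPKM in control EBs and 2.17 FPKM in ES cells, a smaller peak in control EBs than that of Ltb. Tnfrsf12a, the receptor gene for TWEAK, was at 14.04 FPKM in knockdown EBs, 34.6 FPKM in control EBs and 8.78 FPKM in ES cells, in a locus of 3 genes. Cd40 was at 30.9 FPKM in knockdown EBs, 19.1 FPKM in control EBs and 0.444 FPKM in ES cells.

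Of 15 measured NF-kB pathway genes, through which these receptors signal, 1 was lower and 0 higher in knockdown EBs, with a median log2 difference of −0.23. Among all genes 2.53% were lower and 5.32% higher, so the count is near that of genes at large. The lower NF-kB gene was Relb, the subunit gene of the branch that Ltbr activates, at 1.44 FPKM in knockdown EBs, 4.74 FPKM in control EBs and 2.74 FPKM in ES cells. Its partner Nfkb2 was at 3.84, 8.15 and 3.90 FPKM in those libraries and fell short of the size rule, at −0.92. Relb was under 5 FPKM in every library. No NF-kB gene was lower once 5 FPKM was required, whereas 2 were lower with a pseudocount of 0.1. Of 7 genes known as targets of Ltbr in lymphoid tissue 3 were measured, and Madcam1, an adhesion molecule gene, was at 1.60 FPKM in knockdown EBs, 6.03 FPKM in control EBs and 1.76 FPKM in ES cells. Cxcl13, Ccl19 and Ccl21a were listed at 0 in all 3 libraries. Ccl19 and Ccl21a are each in a locus of 6 genes, so these 2 were not read as absent.

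Fgfbp3, the other FGF-binding protein gene, was near 1 FPKM and did not pass the size rule, at 1.58 FPKM in knockdown EBs, 0.762 FPKM in control EBs and 0.691 FPKM in ES cells. Of 5 FGF ligand genes whose products bind FGFBP1, 1 was measured, Fgf10, at 4.82 FPKM in knockdown EBs, 1.56 FPKM in control EBs and 1.68 FPKM in ES cells, in a locus of 2 genes. Fgf2 was at 0.0572 FPKM in knockdown and 0.0903 FPKM in control EBs, in a locus of 10 genes, so its value is uncertain. Fgf1 and Fgf7, in loci of 9 and 5 genes, are uncertain too, and Fgf1 and Fgf2 were listed at 0 for control EBs in the other table. Fgfbp1 was at 85.2 FPKM in control EBs while the listed ligands summed to 1.99 FPKM there, a sum that includes these uncertain values. Ligands outside this list are not covered by it, and Fgf8 was at 183 FPKM in control EBs.

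Among FGF receptor genes Fgfr1 was level, at 23.9 FPKM in knockdown EBs, 23.1 FPKM in control EBs and 22.9 FPKM in ES cells, in a locus of 3 genes. Fgfrl1, which encodes a receptor without a kinase domain, was at 6.13 FPKM in knockdown and 2.36 FPKM in control EBs. Fgfr2 was listed at 0 in every library, in a locus of 41 genes, and was not read as absent. Heparan sulphate is the matrix store from which FGFBP1 takes FGFs. Of 13 measured genes that build or remodel it, 1 was lower and 0 higher in knockdown EBs (median log2 difference −0.065). Among all genes 2.53% were lower and 5.32% higher, so the count is near that of genes at large. The lower heparan sulphate gene was the sulphotransferase gene Hs3st1, at 0.371 FPKM in knockdown and 1.89 FPKM in control EBs. Sulf1, which removes sulphate groups outside the cell, was at 29.6 FPKM in knockdown EBs, 55.7 FPKM in control EBs and 9.12 FPKM in ES cells, and the perlecan gene Hspg2 at 5.88, 10.6 and 71.7 FPKM.

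Between control EBs and ES cells, where 15.8% of all genes were higher and 19.5% lower, the lists around the 3 genes differed in their counts, and no balance was tested. Of 4 measured lipoxygenase genes 2 were higher, Alox15 and Alox12e, and 0 lower. Of 10 other eicosanoid enzymes 2 were higher and 3 lower, of 8 fatty acid genes 0 were higher and 3 lower, of 3 eicosanoid receptors 1 was higher and 0 lower, and of 4 genes of interleukin-4 and interleukin-13 signalling 0 were higher and 3 lower. Of 6 TNF ligands 1, Ltb, was higher and 3 lower. Of 14 TNF receptor genes 4 were higher and 3 lower, of 15 NF-kB pathway genes 0 were higher and 2 lower, and of 3 targets of Ltbr 2 were higher and 1 lower. The lower target was Icam1, an adhesion molecule gene, at 1.64 FPKM in control EBs and 29.5 FPKM in ES cells, in a locus of 6 genes. Of 14 heparan sulphate genes 2 were higher and 5 lower, and of 4 FGF receptor genes 0 were higher and 1 lower. Fgfbp1 was the 1 measured FGF-binding protein gene, and Fgf10, the 1 measured ligand, passed in neither direction.

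**Figure D4:**
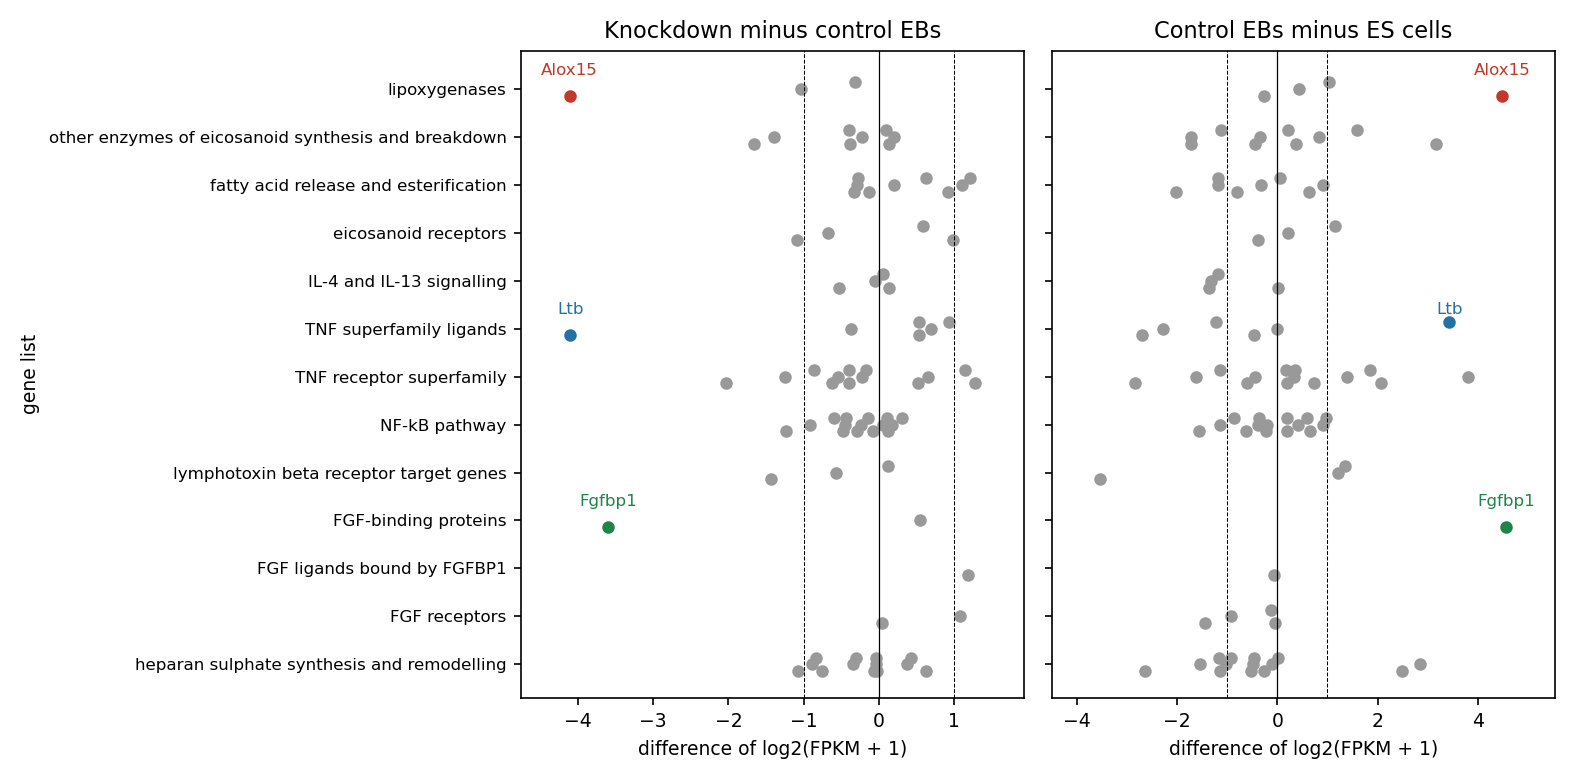
Difference of log2(FPKM + 1) for each measured gene of the pathway lists around Alox15, Ltb and Fgfbp1, knockdown minus control EBs (left) and control EBs minus ES cells (right). Dashed lines mark differences of 1. On the left Alox15, Ltb and Fgfbp1 lie at −4.11, −4.11 and −3.60, and the next lowest gene, Tnfrsf19, at −2.04.

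Markers of the leukocytes in which Alox15 and Ltb are best known were scarce, whereas simple epithelial markers were abundant. Of 13 lymphocyte markers 7 were at 0 in both knockdown and control EBs, among them Ptprc, Cd4 and Cd8a, and the list summed to 6.69 FPKM in knockdown EBs and 10.03 FPKM in control EBs. Most of this was the kinase gene Lck, at 5.43 FPKM in knockdown EBs, 8.37 FPKM in control EBs and 24.8 FPKM in ES cells. Of 14 macrophage and eosinophil markers 7 were at 0 in both, among them Fcgr1, C1qa and Epx, and the list summed to 21.6 FPKM in knockdown and 16.1 FPKM in control EBs, mostly from Cd68, at 15.2 and 14.8 FPKM in the same order. Prg2, an eosinophil granule gene, was at 4.90 FPKM in knockdown EBs and listed at 0 in control EBs. The control EBs thus held Alox15 and Ltb with Ptprc, the pan-leukocyte gene, listed at 0.

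Of 13 markers of stratified epithelium and surface ectoderm 8 were measured, and 0 of the 8 passed the size rule between knockdown and control EBs (median log2 difference −0.14). Krt8 was at 193 FPKM in knockdown and 241 FPKM in control EBs, Epcam at 123 and 85.1 FPKM in the same order, and Trp63 was listed at 0 in both. The list summed to 689 FPKM in knockdown EBs and 730 FPKM in control EBs, mostly from Krt8, Epcam and Krt18, the last at 293 and 317 FPKM. Krt5 was listed at 0 in knockdown EBs and at 0.207 FPKM in control EBs, and Krt14 at 0 in both. Krt15 was at 0.468 FPKM in knockdown EBs and listed at 0 in control EBs. The sum therefore describes simple epithelial markers and not stratified epithelium. Primitive streak markers moved with the 3 genes in part, with 6 of 12 lower and 0 higher in knockdown EBs. Among all genes 2.53% were lower and 5.32% higher. T, the knockdown target, is 1 of the 6, and without T 5 of 11 were lower (median −0.96). The sums were 295 FPKM in knockdown EBs and 661 FPKM in control EBs, of which T was 2.47 and 254 FPKM. Gsc, at 52.9 FPKM in knockdown and 42.1 FPKM in control EBs, and Lhx1, at 36.5 and 27.5 FPKM in the same order, were not lower. Cyp26a1, a retinoic acid-degrading enzyme gene of this list, was at 111.7 FPKM in knockdown and 55.5 FPKM in control EBs, just short of the size rule, and 1 streak marker counted as higher with a pseudocount of 0.1 or 0.5 or with libraries scaled to a common sum. Node and notochord markers moved with the 3 genes more widely, summing to 30.9 FPKM in knockdown EBs and 406 FPKM in control EBs, of which T was 2.47 and 254 FPKM. Without T, 6 of 7 were lower (median −1.62), with Krt19 at 6.10 FPKM in knockdown and 65.9 FPKM in control EBs. Of 6 measured visceral endoderm markers 2 were higher and 0 lower in knockdown EBs, beside 5.32% higher and 2.53% lower among all genes. The higher ones were Apoa1, at 2.92 FPKM in knockdown and 0.271 FPKM in control EBs, and Hnf4a, at 12.2 and 0.2497 FPKM in the same order, in a locus of 4 genes. Amn, at 1.04 FPKM in knockdown and 2.82 FPKM in control EBs, and Cubn, at 0.661 and 2.09 FPKM in the same order, fell short of the rule, and 2 markers of this list counted as lower with a pseudocount of 0.1 or 0.5. The part of these markers in the values of Alox15, Ltb and Fgfbp1 was not tested.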

How the data were processed

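The labels give 3 mouse libraries, 1 each of Brachyury knockdown EBs, control EBs and ES cells, with RNA extracted with TRIzol LS and libraries made with an Illumina mRNA-seq kit. The submitters' processing notes name Bowtie, Cuffdiff and the build mm9 but no versions. The sources used here do not give the annotation. The authors deposited FPKM in 2 tables of 36808 genes, 2 libraries each, per the file headers. The deposited tables also hold an unadjusted p-value and a natural log fold change, with no usable value where 1 library is at 0. A listed 0 may be a failed estimate, since 133 genes of the control library had 0 in one table and 5 FPKM or more in the other.

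In the table with ES cells, the EB column was read as the control library. Short RNAs were left out, symbols turned into dates (25) were looked up by gene ID, and rows of a symbol were summed. A gene was compared where either library reached 1 FPKM, by subtracting log2(FPKM + 1) values, which understates changes of low genes; a difference of 1 or more counts as higher or lower. With 1 library per group no test was run. The authors' p was turned into an error of the log ratio and a 95% interval, taking it as a normal test. Starts have 1 added to the deposited mm9 locus; such loci can hold several genes. All 220 entries of 19 gene lists were matched by gene ID or else symbol in the deposited tables; GENCODE M21 gave biotypes and coding sequences. The genes, lists and rules were chosen with earlier results of these data known. Named genes were T, the 3 genes, neighbours within 100 kb, the 5 nearest genes with a proper symbol (no pseudogene, clone or Gm name), up to 4 genes per list by size of difference in either comparison, and Ltbr, Tnf, Lta, Fgfbp3, Fgf2, Alox5, Alox12 and Alox12e. Others named in the text, such as Gpx4, Nfkb2, Ephx2, Epcam and Fgfr2, were chosen after their values were seen, and some covered by counts are not named. Calling was checked on data simulated with little noise for genes at 5 FPKM or more, so the check does not cover lower genes. Tools were Python 3.11.15, pandas 2.3.3 and Biopython 1.88.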

Additional observations from a re-analysis of the deposited data

How the results depend on the processing

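All 30 recomputed differences of Alox15, Ltb and Fgfbp1 kept their sign and stayed within the error implied by the authors' p. They were made with pseudocounts of 0.1 and 0.5, 2 scalings and the highest row per symbol. A drop of over 10-fold chose the genes, so these settings could hardly reverse the sign in knockdown EBs. The implied error was wide for Alox15 and Ltb, from 1.22 to 2.99 on the log2 scale, so staying within it is a weak check. In knockdown minus control EBs the recomputed differences ran from −5.25 to −4.11 for Alox15, from −5.32 to −4.11 for Ltb and from −3.78 to −3.60 for Fgfbp1. In control EBs minus ES cells they ran from 4.49 to 6.33, from 3.24 to 4.04 and from 4.29 to 4.96. Counts over all genes depended more on the settings. In knockdown against control EBs 732 genes were higher and 348 lower as reported, 1166 and 539 with a pseudocount of 0.1, and 400 and 229 with a floor of 5 FPKM. In control EBs against ES cells 2202 were higher and 2717 lower as reported, 1618 and 4740 with each library scaled to a sum of 1000000, and 2764 and 2114 with each divided by its median. Lower genes made up 55.2%, 74.6% and 43.3% of these calls, and the median of all genes was −0.10, −0.52 and 0.11, so small differences of listed genes between control EBs and ES cells depend on the scaling. Of 524 recomputed list counts, 42 differed over 1.5 times or changed from or to 0, 12 of them with the floor of 5 FPKM and 11 with a pseudocount of 0.1; the cause was not tested. No paired analysis was possible because each group is 1 library. Unknown depth limits values under 1 FPKM most, among them Alox15 and Ltb in knockdown EBs.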

Other observations

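A ligand and its receptor followed the same pattern as Alox15, Ltb and Fgfbp1, chosen here after their values were seen. Apln, which encodes the peptide apelin, was at 0.709 FPKM in knockdown EBs, 8.35 FPKM in control EBs and 0.204 FPKM in ES cells. Aplnr, which encodes its receptor, was at 1.91 FPKM in knockdown EBs, at 26.1 FPKM in control EBs and listed at 0 in ES cells. The differences, knockdown minus control EBs, were −2.45 and −3.22 on the log2(FPKM + 1) scale, and each has a deposited locus of its own.

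Another 8 genes that were over 8-fold lower in knockdown EBs, also chosen after their values were seen, differed in their ES cell level. Srgn, which encodes the proteoglycan core protein serglycin, was at 0.714 FPKM in knockdown EBs, 12.1 FPKM in control EBs and 12.3 FPKM in ES cells. Plaur, the urokinase receptor gene, was at 0.911 FPKM in knockdown EBs, 7.77 FPKM in control EBs and 23.5 FPKM in ES cells. Gadd45b, a stress response gene, was at 1.55 FPKM in knockdown EBs, 12.5 FPKM in control EBs and 9.46 FPKM in ES cells. Cryab, a small heat shock protein gene, was at 0.512 FPKM in knockdown EBs, 7.87 FPKM in control EBs and 15.5 FPKM in ES cells. Nt5e was at 0.532, 5.72 and 2.63 FPKM and Aqp8 at 0.485, 6.29 and 2.10 FPKM in the same libraries. Foxb1, at 0.155 FPKM in knockdown and 5.44 FPKM in control EBs, and Trim67, at 0.209 and 6.46 FPKM in the same order, were both listed at 0 in ES cells. These 2 lie in loci of 2 and 4 genes. No test was possible with 1 library per group.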
